A study of Mus musculus with 6 samples.

Results

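The protocadherin genes were compared between M0505 and STOSE cells. M0505 is a line of ovarian surface epithelial cells established from FVB/N mice, and STOSE is the line that arose from it by spontaneous transformation during long-term passage, so that time in culture and transformation cannot be told apart in this comparison. Both lines were grown in the same mouse ovarian surface epithelium medium, and total RNA of 3 biological replicates of each was hybridized to Affymetrix Mouse Gene 1.0 ST arrays, on which several probes along a transcript are summarized as 1 probe set. Neither line was engineered or treated, each is a single cultured line, and the labels do not say how the replicates were separated, so p-values measure the spread between these samples, which may be technical. Both lines were aneuploid in the paper's karyotypes, with M0505 cells near-diploid or near-tetraploid and most STOSE cells near-triploid. Copy number of the genes was not measured in these samples, and its part in the differences below was not tested. A gene was counted as a protocadherin where its symbol in the deposited table began with Pcdh. This gave 36 genes of 20405 with a symbol, read by 40 probe sets, and for the 4 genes with more than 1 probe set only the brightest on average over the 6 arrays was used. That mean was used to choose the probe set and is given below only as a description. By symbol, 1 gene belonged to the alpha cluster (*Pcdha10*), 22 to the beta cluster, 1 to the gamma cluster (*Pcdhga12*) and 12 were non-clustered.

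Protocadherins are single-pass membrane proteins of the cadherin superfamily that bind the same protein on a neighboring cell. The alpha, beta and gamma genes lie one after another in mouse, and in neurons each cell uses a small, partly random choice of them, which gives the cell a surface identity. Each clustered gene has a promoter and a large variable exon of its own. In the alpha and gamma clusters this exon is spliced to constant exons that all genes of the cluster share, whereas a beta gene has no constant region. The choice of promoter depends on CTCF and cohesin, which loop an enhancer to it, and on DNA methylation, which keeps unused promoters silent. The non-clustered protocadherins are scattered over the genome and are studied mainly in cell sorting, axon guidance and, for several of them, as genes silenced in tumors.

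All values are robust multi-array average (RMA) values on a log2 scale, and a difference is the STOSE mean minus the M0505 mean. Genes with a fold change of at least 2 and an adjusted p under 0.05 (limma, Benjamini-Hochberg over the 20405 genes) were called. An array has no read depth, and 3 arrays against 3 bound the precision. Replicate arrays correlated at r = 0.997 or above across genes, and an M0505 with a STOSE array at r = 0.943 or above, genes not being independent replicates. The 95th percentile of 1134 olfactory receptor probe sets, 4.74, served as the background level. Of 12 ovarian surface epithelium markers, 11 were measured and 10 were above the background level in both lines, among them *Wt1* (11.39 and 10.76, in M0505 and STOSE), *Upk3b* (12.25 and 11.91), *Msln* (11.13 and 10.52) and *Upk1b* (12.08 and 11.75). *Lhx9* was under the background level in both (4.63 and 4.71). Of these markers *Krt19* (difference −5.56), *Krt8* (−4.55), *Gata4* (−1.38) and *Krt7* (−1.03) were called lower in STOSE cells, the last of them close to 2-fold. That is 4 of 11, where 7.59% of all genes were called lower. By the adjusted p alone 9 of the 11 were lower and 0 higher (24.8% and 31.6% of all genes), with a median difference of −0.63. *Krt18* (−0.84), *Wt1* (−0.63), *Msln* (−0.61), *Upk3b* (−0.34) and *Upk1b* (−0.33) were among these 9. *Krt7* was no longer called without M0505 replicate 2 (−0.99), M0505 replicate 3 (−0.997) or STOSE replicate 1 (−0.89), nor with arrays centred on their medians (−0.83).

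Among the protocadherins, RNA of 8 adjoining beta genes and of 1 non-clustered gene was called lower in STOSE cells. RNA of 1 other non-clustered gene was called higher. The other 14 beta genes were under the background level in M0505 cells, apart from *Pcdhb11* by 1 of its probe sets. Genes under that level in M0505 cells could show small measured differences, but a large fall of their RNA could not be read. Of the 36 genes, 9 were called lower in STOSE cells, where 7.59% of all genes were, and 1 was called higher, where 4.90% of all genes were. The 9 were *Pcdhb15* to *Pcdhb22* and *Pcdh18*, and the gene called higher was *Pcdh19*. *Pcdhb16* fell by a measured 10.03-fold in STOSE cells (difference −3.33, SE 0.11). The median difference of the 36 genes was 0.04, against 0.08 over all genes. The arrays of the lines did not overlap for 13 protocadherin genes in the lower direction and for 9 in the higher direction, which over all genes was so for 27.0% and 37.6%, or for 22 protocadherin genes in either direction against 64.6% of all genes. By the adjusted p alone 13 protocadherin genes were lower and 8 were higher (24.8% and 31.6% of all genes). In bulk RNA, fewer cells that express a gene and less RNA per cell cannot be told apart.

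**Figure D1:**
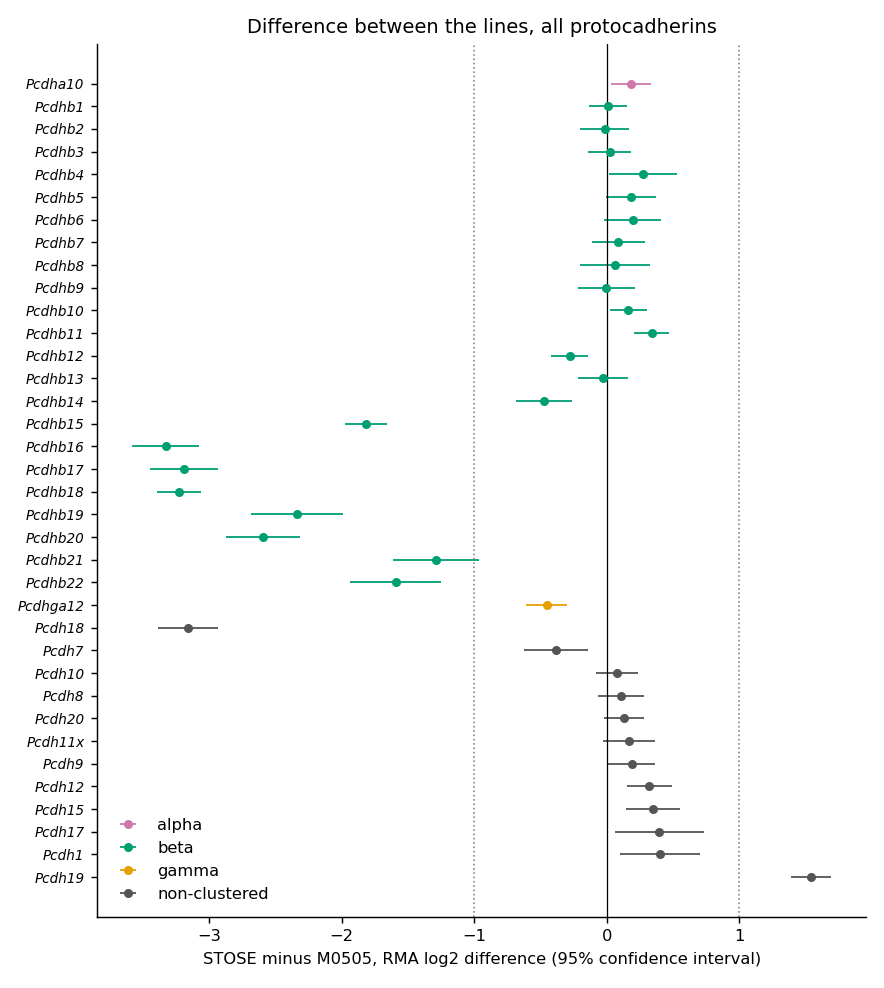
Difference between the lines (STOSE minus M0505, RMA log2) for each of the 36 protocadherin genes, with the 95% confidence interval from limma. Colors mark the alpha, beta, gamma and non-clustered genes and dotted lines mark 2-fold; *Pcdhb15* to *Pcdhb22* and *Pcdh18* lie left of the lower line, *Pcdh19* lies right of the upper one and the other 26 genes lie between.

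Within the beta cluster the genes called lower were 8 neighbors at one end of the array of genes, *Pcdhb15* to *Pcdhb22* in RefSeq order. RefSeq (GRCm38.p6) places the 22 beta genes on chromosome 18, and the probe sets that lie among those of the cluster by their numbers follow the same order for all 22. The division of the cluster after *Pcdhb14* was drawn after the values were seen. All 8 genes were above the background level in M0505 cells, and none of their M0505 arrays overlapped a STOSE array. Over all genes 7.59% were called lower, and the arrays did not overlap in the lower direction for 27.0%. The 8 genes were set apart by their calls, so the lack of overlap only describes them. Their median measured difference was −2.46, and it was −1.59 with the 6 genes that ended below background in STOSE cells set at their bounds. Of the other 14 beta genes only *Pcdhb11* was above the background level in M0505 cells, and only by the brighter of its 2 probe sets. Where along the cluster the falls end therefore cannot be told from these arrays.

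*Pcdhb16* had log2 values of 8.34, 8.34 and 8.24 in M0505 cells and of 4.73, 5.18 and 5.02 in STOSE cells. The difference was −3.33 (SE 0.11, adjusted p = 9.51e-08), and the STOSE mean of 4.98 was still above the background level, with replicate 1 just under it. *Pcdhb18* had 7.49, 7.53 and 7.53 against 4.22, 4.42 and 4.22. All 3 STOSE arrays were below background, so that the measured difference of −3.23 (SE 0.07, adjusted p = 1.15e-08) corresponded to a level at least 6.84-fold lower when STOSE cells were set at the background level. *Pcdhb17* had 6.96, 6.59 and 6.71 against 3.47, 3.74 and 3.48, a difference of −3.19 (SE 0.11, adjusted p = 1.41e-07). It too ended below background, at least 4.03-fold lower by the same measure. *Pcdhb16*, *Pcdhb17* and *Pcdhb18* lie side by side, and the sizes of their falls were not ranked, because those of *Pcdhb17* and *Pcdhb18* are known only as lower bounds.

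*Pcdhb20*, next but one along the cluster, had log2 values of 6.30, 6.18 and 5.82 in M0505 cells and of 3.64, 3.44 and 3.45 in STOSE cells (difference −2.59, SE 0.12, adjusted p = 6.47e-07). *Pcdhb19* had 5.87, 5.68 and 5.76 against 3.23, 3.83 and 3.26 (difference −2.33, SE 0.15, adjusted p = 3.76e-06), with STOSE replicate 2 higher than the other STOSE arrays. Both genes were below background in STOSE cells, at least 2.56-fold and at least 2.04-fold lower. *Pcdhb15*, the first of the 8, had 7.32, 7.13 and 7.22 against 5.40, 5.36 and 5.47 (difference −1.82, SE 0.07, adjusted p = 2.27e-07). All of its STOSE arrays stayed above the background level. Its 95% confidence interval, from −1.98 to −1.66, did not reach that of its neighbor *Pcdhb16* (−3.58 to −3.07), the other gene of the 8 with a STOSE mean above background, although the difference between the genes was not itself tested.

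The last genes of the cluster are named here after their values were seen. *Pcdhb22* had log2 values of 5.81, 6.14 and 5.98 in M0505 cells and of 4.05, 4.63 and 4.48 in STOSE cells (difference −1.59, SE 0.15, adjusted p = 3.13e-05). *Pcdhb21* had 5.72, 5.53 and 5.24 against 4.23, 4.41 and 3.99 (difference −1.29, SE 0.14, adjusted p = 8.09e-05). Both were below background in STOSE cells, which leaves a level at least 2.36-fold lower for *Pcdhb22* and at least 1.69-fold lower for *Pcdhb21*. With each array left out in turn, *Pcdhb21* stayed between −1.42 and −1.17 and *Pcdhb16* between −3.43 and −3.20. The beta genes are close relatives in sequence, and how far a probe set of 1 also reads RNA of another was not tested.

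**Figure D2:**
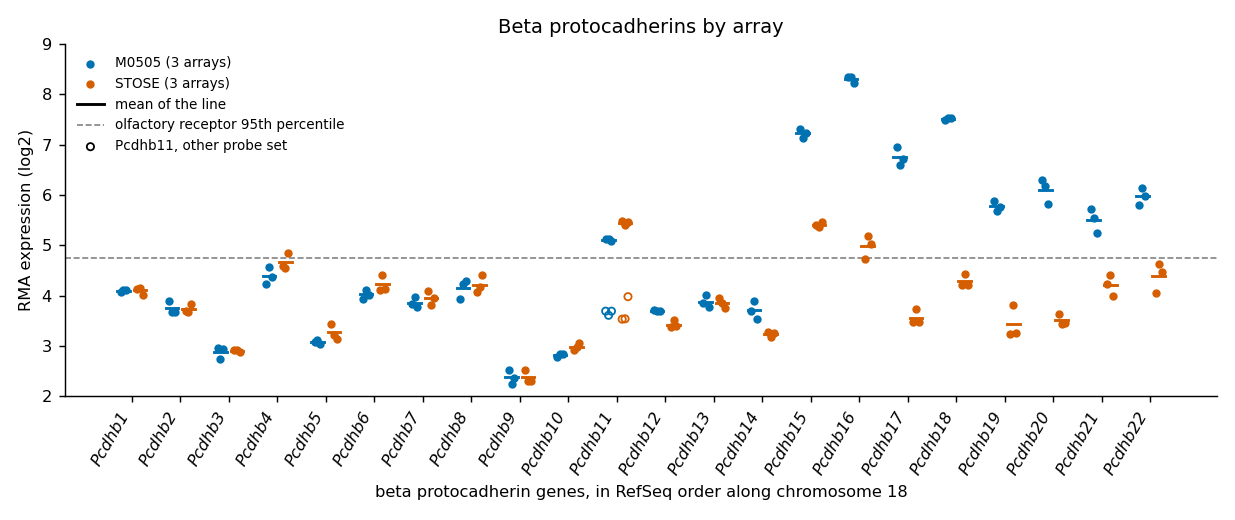
RMA log2 expression of the 22 beta protocadherins in RefSeq order along chromosome 18, with 1 point per array, short bars for the mean of each line and a dashed line at the background level of 4.74. M0505 arrays of *Pcdhb15* to *Pcdhb22* lie above the dashed line and above all STOSE arrays of the same gene; *Pcdhb1* to *Pcdhb14* lie below it in both lines, apart from *Pcdhb4* in 1 STOSE array and the filled points of *Pcdhb11*, whose open points are its other probe set.

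The other 14 beta genes, *Pcdhb1* to *Pcdhb14*, were called in neither direction. For 13 of them the means of both lines lay under the background level, from 2.38 for *Pcdhb9* to 4.67 for *Pcdhb4* in STOSE cells. Measured differences ran from −0.47 to 0.34, which for genes under the background level in both lines sets no limit on a change in RNA. The largest was that of *Pcdhb14*, the immediate neighbor of *Pcdhb15*, with 3.71, 3.90 and 3.55 in M0505 cells and 3.29, 3.19 and 3.26 in STOSE cells (difference −0.47, SE 0.09, adjusted p = 0.00236). RefSeq has no gene between *Pcdhb14* and *Pcdhb15*, and the measured difference went from −0.47 to −1.82 from one to the next. *Pcdhb14* was under the background level in both lines, so this step does not show where the falls end. *Pcdhb12* was lower by a smaller margin (difference −0.28, SE 0.06, adjusted p = 0.00434), and *Pcdhb10* was higher (difference 0.16, SE 0.06, adjusted p = 0.0459), with both lines of each below background. The sign of such small differences depends on the scaling, since 9 of the 14 were positive as deposited, 6 after a further quantile normalization and 12 with each array centred on its median.

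*Pcdhb11* is the 1 gene of this stretch that appeared to be above background, and its value rested on the choice of probe set. The brighter of its 2 probe sets had 5.13, 5.12 and 5.08 in M0505 cells and 5.49, 5.40 and 5.47 in STOSE cells (difference 0.34, SE 0.06, adjusted p = 0.00107). By its number this probe set lies between those of *Cyp2d13* and *Cyp2d40*, which encode cytochrome P450 enzymes, and away from the cluster. The other probe set, numbered between those of *Pcdhb10* and *Pcdhb12*, had 3.69, 3.61 and 3.69 against 3.54, 3.54 and 3.98, below background throughout, with a difference of 0.02 (SE 0.12). Read by that probe set, all 14 genes lay under the background level in both lines.

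Only 1 probe set stood for the alpha cluster and 1 for the gamma cluster. RefSeq holds 14 alpha genes and 22 gamma genes, 1 of these a pseudogene, and in each cluster the model of every gene overlaps another of the cluster because they end in the shared exons. Whether the probes read a variable exon of the named gene or the shared exons was not tested, so the names *Pcdha10* and *Pcdhga12* may each stand for several genes of their cluster. *Pcdha10* had 4.03, 4.06 and 4.08 in M0505 cells and 4.20, 4.17 and 4.35 in STOSE cells, below background in every array (difference 0.19, SE 0.07, adjusted p = 0.0414). *Pcdhga12* had 6.22, 6.17 and 6.21 against 5.85, 5.66 and 5.73. It was above background in all 6 arrays and lower in STOSE cells without overlap, by 1.37-fold (difference −0.45, SE 0.07, adjusted p = 0.000449), which is under the 2-fold threshold. Its 95% confidence interval, from −0.60 to −0.30, lay outside those of all 8 beta genes called lower.

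Of the 12 non-clustered protocadherins, 1 was called lower, 1 was called higher and 10 were not called. That is 8.33% in each direction, near the 7.59% of all genes called lower and the 4.90% called higher. The count is therefore no result about the group, and the 2 genes are given singly. *Pcdh18*, on chromosome 3, encodes a protocadherin of the delta group, whose members act in cell sorting and in the wiring of the nervous system. It had log2 values of 8.29, 8.08 and 7.97 in M0505 cells and of 5.10, 4.87 and 4.91 in STOSE cells, well apart and with the STOSE arrays just above the background level. The difference was −3.16 (SE 0.10, 8.91-fold, adjusted p = 6.65e-08). *Pcdh19*, on the X chromosome, belongs to the same group and is known for an epilepsy of females caused by mutation of the human gene. It went the other way, with 5.05, 5.03 and 5.14 in M0505 cells and 6.54, 6.70 and 6.62 in STOSE cells (difference 1.54, SE 0.07, 2.92-fold, adjusted p = 3.84e-07). Both genes kept their calls with each array left out, with *Pcdh18* between −3.23 and −3.07 and *Pcdh19* at most 1.58.

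The promoters of these 2 genes are shown because they are the protocadherins outside the clusters whose RNA changed, in opposite directions. The sequences are those of RefSeq for GRCm38.p6, 250 bases before to 50 bases after the start of transcription, 5′ to 3′ on the strand of the gene, with every CG dinucleotide, the site of DNA methylation, in capitals. CG reads the same on both strands. The *Pcdh18* window is chr3:49757267-49757566 and the *Pcdh19* window is chrX:133688944-133689243, both on the minus strand.
Pcdh18: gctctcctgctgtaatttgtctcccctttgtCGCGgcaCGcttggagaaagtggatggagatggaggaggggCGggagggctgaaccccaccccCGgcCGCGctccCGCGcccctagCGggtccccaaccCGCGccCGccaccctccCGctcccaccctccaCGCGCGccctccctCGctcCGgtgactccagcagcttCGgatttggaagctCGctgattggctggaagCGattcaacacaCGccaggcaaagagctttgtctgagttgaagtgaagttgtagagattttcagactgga
Pcdh19: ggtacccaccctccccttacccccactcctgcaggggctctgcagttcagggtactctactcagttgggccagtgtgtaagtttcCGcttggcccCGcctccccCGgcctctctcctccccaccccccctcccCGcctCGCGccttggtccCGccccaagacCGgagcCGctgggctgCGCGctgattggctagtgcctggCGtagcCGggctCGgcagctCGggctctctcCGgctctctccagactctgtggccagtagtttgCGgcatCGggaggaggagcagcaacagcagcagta
The *Pcdh18* window held 23 CG dinucleotides and the *Pcdh19* window 18, against a median of 7 over the 32851 promoter windows of all genes. Fewer CG than in *Pcdh18* were found in 78.5% of those windows and fewer than in *Pcdh19* in 70.3%. Windows were at hand for 9 of the 12 non-clustered genes and ranged from 4 CG in *Pcdh20* to 26 in *Pcdh17*, neither of which was called. At least 1 CG was present in 94.6% of all windows. Methylation was not measured in these samples.

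*Pcdh7*, another delta protocadherin, was far above background in both lines, with 9.53, 9.39 and 9.26 in M0505 cells and 9.21, 8.94 and 8.87 in STOSE cells. Every STOSE array was below every M0505 array, but by a small margin (difference −0.38, SE 0.11, adjusted p = 0.0141). It was thus 1 of 2 non-clustered genes lower by the adjusted p alone, the other being *Pcdh18*. By that measure 5 of the 12 were higher, where 24.8% of all genes were lower and 31.6% higher. The genes higher were, besides *Pcdh19*, *Pcdh1* (difference 0.40, SE 0.13), *Pcdh17* (0.40, SE 0.14), *Pcdh15* (0.35, SE 0.09) and *Pcdh12* (0.32, SE 0.07), which is 1.25-fold to 1.32-fold. *Pcdh17* passed narrowly (adjusted p = 0.0451). Its arrays overlapped between the lines, with 5.60 in STOSE replicate 2 and 5.66 in M0505 replicate 2. *Pcdh15* encodes a component of the tip links of hair cells, and *Pcdh12* was described as an endothelial cadherin. The second probe set of *Pcdh15* pointed the other way (4.24 in M0505 cells and 4.12 in STOSE cells, below background), and with the mean of both the gene no longer passed (difference 0.12, adjusted p = 0.194). *Pcdh8*, *Pcdh9*, *Pcdh10*, *Pcdh11x* and *Pcdh20* did not pass the adjusted p. Their measured differences were 0.08 to 0.19. All but *Pcdh8* (4.77 and 4.87) were below background in both lines, so these values set no limit on a change in their RNA.

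**Figure D3:**
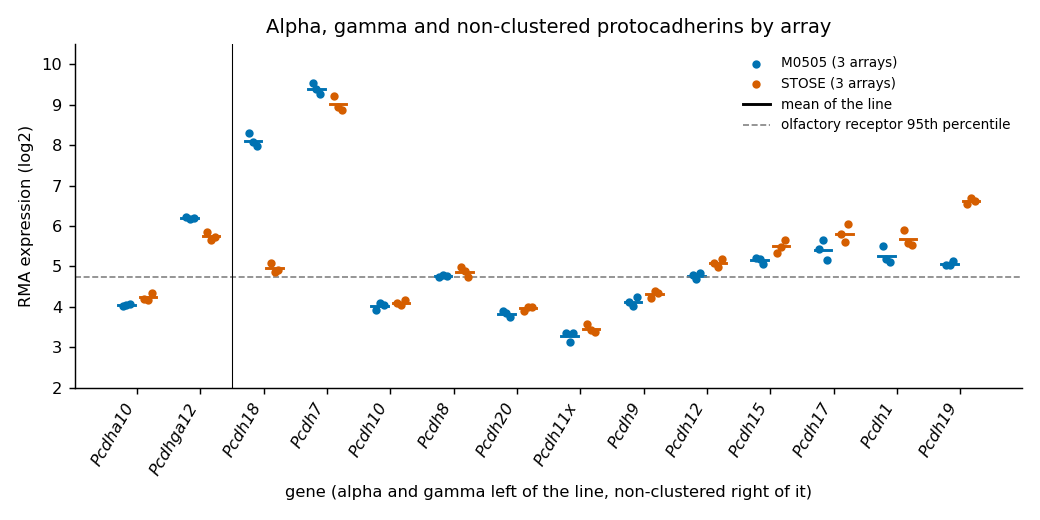
RMA log2 expression of *Pcdha10* and *Pcdhga12* (left of the vertical line) and of the 12 non-clustered protocadherins (right of it), with 1 point per array, short bars for the mean of each line and a dashed line at the background level of 4.74. The lines are far apart for *Pcdh18* (means 8.11 and 4.96) and *Pcdh19* (5.07 and 6.62) and close for the other genes.

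Of the listed genes around the clusters on chromosome 18, those called lower all lay after the gamma cluster. Of 22 listed neighbors, 4 were called lower and 0 higher, with a median difference of −0.18. None of the 10 that RefSeq places before the alpha cluster was called, and their differences ran from −0.88 (*Tmco6*) to 0.97 (*Cd14*, a lipopolysaccharide co-receptor). Between the beta and gamma clusters, just past *Pcdhb22*, lie *Slc25a2*, a mitochondrial carrier, and *Taf7*, a subunit of the general transcription factor TFIID. Neither was called (differences −0.07, SE 0.17, and −0.14, SE 0.12), but *Slc25a2* had means of 4.75 and 4.68, at the background level. After the gamma cluster 4 of 10 were called lower, namely *Fchsd1* (−2.17, SE 0.10), *Gnpda1* (−1.72, SE 0.11), *Ndfip1*, an adaptor of ubiquitin ligases (−1.38, SE 0.12), and *Rell2* (−1.05, SE 0.12). *Rell2* lay close to 2-fold and was not called without M0505 replicate 2 (−0.90), after a further quantile normalization (−0.95) or with arrays centred on their medians (−0.85). Under those scalings 1 and 2 neighbors were called higher. *Diap1*, the first listed gene after the gamma cluster, was at 0.53, and *Pcdh1* and *Pcdh12*, which lie among these genes, were at 0.40 and 0.32. Over the 389 genes of chromosome 18 that are not protocadherins, nearly all of these neighbors among them, the median difference was 0.08 and 5.91% were called lower, against 7.59% of all genes.

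**Figure D4:**
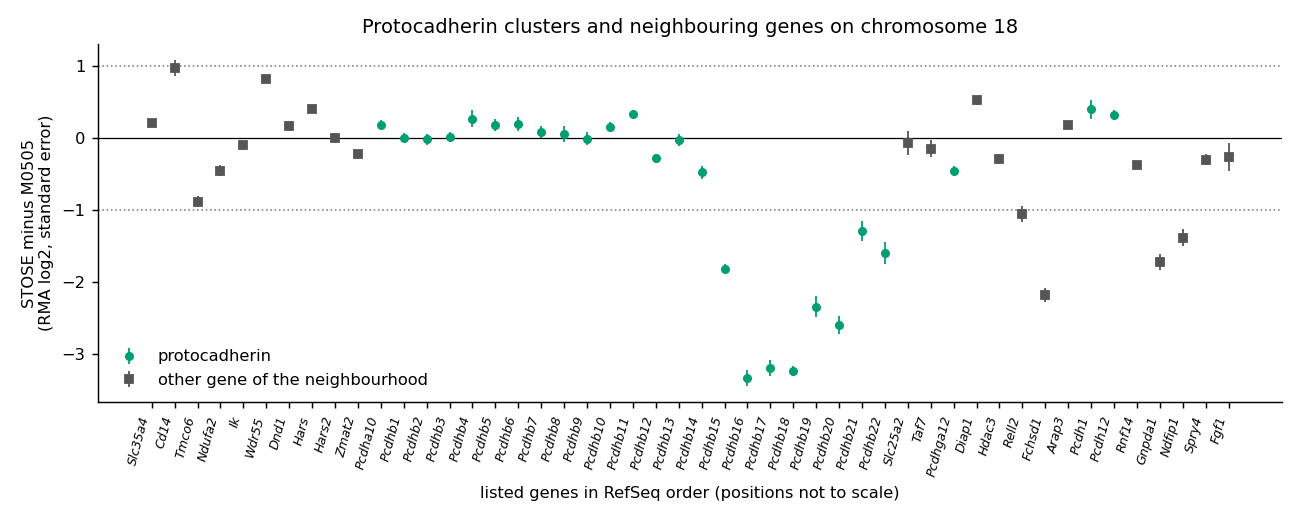
Difference between the lines (STOSE minus M0505, RMA log2, bars for the standard error) for protocadherins and listed neighboring genes on chromosome 18, placed by RefSeq order and not to scale, with dotted lines at 2-fold. The 8 genes from *Pcdhb15* to *Pcdhb22* lie at −1.29 or below, and the genes on either side of this run, *Pcdhb14* and *Slc25a2*, lie at −0.47 and −0.07. *Pcdhb14* was under the background level in both lines and *Slc25a2* was at it, so neither could show a large fall.

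Genes known to act on the clustered promoters were mostly within 2-fold between the lines. Of 25 such genes on a list, 23 were measured, and all 23 were above background in M0505 cells. Of the 23, 1 was called lower and 0 were called higher, where 7.59% and 4.90% of all genes were. The median difference was 0.27, against 0.08 over all genes. By the adjusted p alone 12 were higher and 6 were lower (31.6% and 24.8% of all genes). The gene called lower was *Tet1*, an enzyme that oxidizes methylated cytosine, with 7.84, 7.95 and 7.65 in M0505 cells and 4.60, 4.30 and 4.47 in STOSE cells. All of its STOSE arrays were below background (difference −3.36, SE 0.10, adjusted p = 5.88e-08), a level at least 8.41-fold lower. *Tet2*, of the same family, was lower by less (difference −0.56, SE 0.11, adjusted p = 0.0022). Among the genes of the loop, *Ctcf* (0.43), the cohesin genes *Rad21* (0.50), *Smc3* (0.58) and *Stag1* (0.66) and the loader *Nipbl* (0.31) were higher by the adjusted p alone, *Smc1a* (0.06) and *Stag2* (−0.08) did not pass it, and *Wapal*, which releases cohesin, was at −0.60. Of the silencing factors, the histone methyltransferase gene *Setdb1* (0.88), the maintenance methyltransferase gene *Dnmt1* (0.81), *Dnmt3b* (0.27) and *Smchd1* (0.34) were higher by the adjusted p alone, and *Dnmt3a* was at −0.00 (adjusted p = 0.971). None of these reached 2-fold as deposited. With each array centred on its median, 2 genes of the list were called higher.

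Of 25 genes listed as partners of protocadherins or as enzymes that process them, 24 were measured and all were above background in both lines. Of the 24, 3 were called lower and 1 was called higher, where 7.59% and 4.90% of all genes were. *Ptk2b*, which encodes the kinase PYK2 that clustered protocadherins bind, was called lower (10.90 to 8.88, difference −2.02, SE 0.08, adjusted p = 2.16e-07). So were *Ret*, a receptor kinase found in complexes with them (difference −1.23, SE 0.08), and *Cyfip2*, a subunit of the WAVE complex that drives actin branching (−1.25, SE 0.09, and −0.60 when its probe sets were averaged). *Fyn*, a kinase of the Src family, was called higher (6.82 to 8.27, difference 1.45, SE 0.08, adjusted p = 1.59e-06). The other 20 were within 2-fold, among them *Adam10* (0.12), a protease that sheds protocadherin ectodomains, and *Nckap1* (−0.29), the WAVE subunit bound by several delta protocadherins. Of 14 measured genes for large or cadherin-related relatives, 1 was called lower and 2 were called higher, beside the same shares of all genes. *Celsr1*, a planar polarity cadherin, was called lower (8.68 to 5.73, difference −2.94, SE 0.07). *Cdhr1* (4.62 to 5.99, difference 1.37, SE 0.08) and *Fat4* (4.64 to 5.67, difference 1.03, SE 0.07, and 0.96 without STOSE replicate 2) were called higher from levels below background, at least 2.38-fold and at least 1.90-fold.

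**Figure D5:**
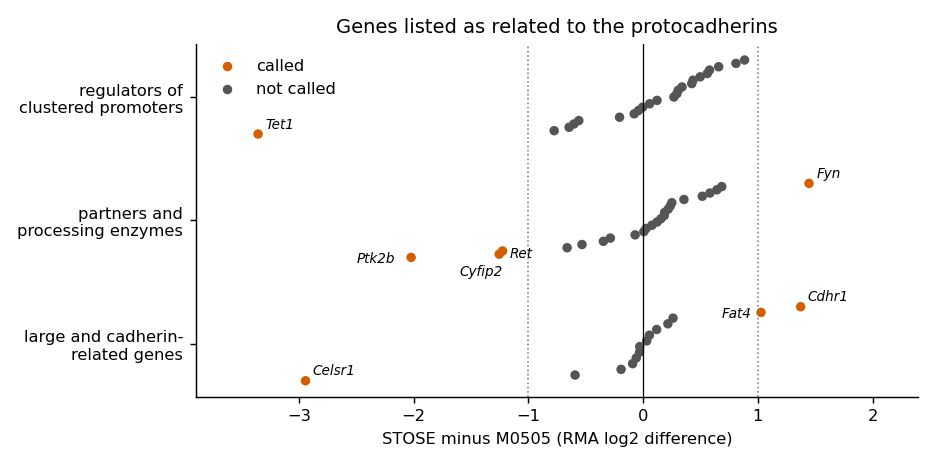
Difference between the lines (STOSE minus M0505, RMA log2) for measured genes of 3 lists, with 1 point per gene, dotted lines at 2-fold and names for the called genes. In the list of promoter regulators *Tet1* stands alone at −3.36 and the other 22 genes lie within 2-fold.

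Markers of other cells were read beside these results because protocadherins are best known from neurons. Of 10 neuron and glia markers 8 were measured, and 1, the synaptic gene *Snap25*, was called lower (to 4.99, difference −1.02, SE 0.14). It was not called without M0505 replicate 1 (−0.86) or STOSE replicate 1 (−0.94), nor under either other scaling. The summed linear level of the 8 was 615 to 642 in M0505 arrays and 512 to 574 in STOSE arrays. Above background were 5 of the 8 in M0505 cells and 6 in STOSE cells, with the myelin gene *Mbp* the brightest probe set (8.63 and 8.33) and the glial gene *Sox10* at 5.35 and 5.67. The neuronal gene *Tubb3* (4.18 in both lines) and the glial gene *Gfap* (4.31 and 4.39) were below background in both. Of 6 endothelial markers *Kdr* was called lower (9.58 to 4.41), which took the summed level from 876 to 956 down to 157 to 171, while *Pecam1*, *Cdh5*, *Emcn* and *Tek* had means of at most 5.01 in either line and *Cldn5* was at 5.63 and 5.71. Of 6 granulosa markers *Inha* (9.61 to 5.68) and *Nr5a1* (7.97 to 5.39) were called lower, and the summed level fell from 1126 to 1250 to 234 to 256. Of 6 fibroblast markers *Col1a2* was called lower (difference −2.45) and *Thy1* higher (1.49), with summed levels of 5069 to 5438 and 5023 to 5238. By the adjusted p alone 4 of these 6 were higher and 2 lower, with a median difference of 0.58. With arrays centred on their medians 3 were called higher, and without STOSE replicate 3 it was 2. Of 6 leukocyte markers none was called and 5 were below background in both lines, *Ptprc* among them. Over all genes 7.59% were called lower and 4.90% higher. The part of any of these markers in the protocadherin results was not tested.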

How the data were processed

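Gene expression in M0505 (3 arrays) and STOSE cells (3 arrays) had been measured on Affymetrix Mouse Gene 1.0 ST arrays. The authors corrected for background, quantile normalized and summarized the probe signals by RMA (Affymetrix Expression Console, per the submitters' processing notes) and deposited log2 values, with 1 column per array and 0 other sample columns left unused. The versions, the annotation release and the genome build are not given in the sources used here. Columns of line means, ratios and linear fold changes hold the authors' own comparison and were not used.

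Of 28944 probe sets, 5414 without a symbol were left out. For each of 20405 genes the probe set with the highest mean was kept, and limma 3.58.1 (lmFit, then eBayes; R 4.3.3) was run without a covariate, two-sided, over all genes. An exact permutation test of 3 arrays against 3 cannot give a p below 0.1 and was not run. The code was tested on simulated data. Symbols were matched to RefSeq genes of GRCm38.p6 for chromosome and order, which placed all 36 protocadherins. Promoters came from RefSeq, and figures were drawn with matplotlib 3.10.9 in Python 3.11.15.

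The members and gene lists were chosen with earlier results of these data known, so no count over a list is independent support. Genes were named by a rule: in each of the alpha, beta, gamma and non-clustered groups the called genes, up to 6 in each direction, and the 2 with the highest mean, and from the lists the called genes, up to 6 a list, and the surface epithelium markers. Other genes named were chosen after their values were seen. Alternatives were a further quantile normalization, median centring, removal of the 25% or 50% of genes with the lowest means, averaging a gene's probe sets, the methods' t-test, limma with an intensity trend and robust prior, no fold threshold, a 4-fold threshold, a replicate block and leaving out each array. A different probe set for *Pcdhb11* was added after the data were seen.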

Additional observations from a re-analysis of the deposited data

How the results depend on the processing

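The same 10 protocadherin genes were called, 9 lower and 1 higher, under a further quantile normalization, median centring, without the dimmest 25% of genes, with the mean of a gene's probe sets, under the methods' t-test (unadjusted and after Benjamini-Hochberg), under limma with trend and robust prior, with the *Pcdhb11* probe set exchanged and with each of the 6 arrays left out. The replicate block also gave 9 lower and 1 higher. Deviations of same-numbered arrays correlated at 0.26, 0.04 and 0.25, so the numbers were not taken as pairs. Without the dimmest 50% of genes only 3 protocadherins were left, with 2 called lower (1 beta gene and 1 non-clustered gene) and 0 called higher. Without a fold threshold 8 protocadherins were called higher (1 alpha, 2 beta and 5 non-clustered) and 13 lower (10 beta, 1 gamma and 2 non-clustered). At 4-fold, 0 were called higher and 6 lower (5 beta genes and *Pcdh18*). Median centring moved the median difference of all genes from 0.08 to 0.28 and the lower share of all calls from 60.8% to 44.5%, and a further quantile normalization gave 0.05 and 55.1%. *Lhx9*, not called, changed sign without M0505 replicate 1 (−0.013) and without STOSE replicate 3 (−0.0038), and leaving out 1 array gave at most 0.13. Signal near background limits the size of the falls of *Pcdhb17* to *Pcdhb22*.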
